A study of Mus musculus with 2 samples.

Results

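Germ cells of XY mouse gonads cultured for 24 h with an inhibitor of the kinases MEK1 and MEK2 were compared with germ cells of XY gonads cultured for 24 h in the vehicle DMSO. The 8 libraries, 4 per group, were taken by their labels from the 40 germ cell libraries of the series. Gonads of E12.5 mouse foetuses were cultured with the mesonephros attached, in DMSO or in 500 nM PD0325901, also known as Mirdametinib, here called MEKi. All 8 libraries came from wild-type foetuses of an ASMU Swiss by 129svJT2 cross that carry an Oct4-eGFP transgene, a reporter of germ cells, and both groups therefore carried the reporter. The mesonephros was removed after culture, gonads from several foetuses were combined for each sample, and GFP-positive cells were sorted. The inhibitor thus acted on the whole gonad, while only the cells sorted as germ cells were measured. The labels numbered the DMSO libraries 2, 3, 4 and 5 and the MEKi libraries 1, 2, 4 and 6, and values below are given in those orders. Both groups were sequenced in pool 1 of 2. Nothing in the labels says whether samples of a group came from separate litters or culture days. The p-values therefore measure the spread between samples as they were made, which for genes was estimated over all 40 libraries.

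MEK1 and MEK2 are the kinases that activate the ERK kinases, the last step of a cascade that runs from receptor tyrosine kinases through RAS and RAF. Active ERK phosphorylates transcription factors, among them the ETS family, and induces its own inhibitors, the DUSP phosphatases and the Sprouty proteins, so that transcripts of these genes are commonly read as a measure of pathway output. In the foetal testis, XY germ cells leave the cell cycle and begin male differentiation under signals from the somatic cells. In the foetal ovary, XX germ cells of the same age enter meiosis under retinoic acid and BMP signals, with Stra8 as an early marker.

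Total counts ran from 2044852 to 3781288 in the DMSO libraries and from 1938080 to 2350963 in the MEKi libraries (exact permutation test, two-sided, p = 0.171). The number of genes with a count lay between 19295 and 21704. The germ cell identity of the sort was checked with 9 markers, all of which were tested, and 0 of the 9 were called in either direction, also for a change of any size. Their summed level was 3854 to 5265 CPM (counts scaled to a common library size after TMM normalisation) in DMSO and 4613 to 4952 CPM in MEKi. The 27 markers of gonadal somatic cells summed to 126 to 252 CPM in DMSO and 167 to 224 CPM in MEKi. None of the 20 that were tested was called, and the Leydig cell hormone Insl3 was at 0 counts in all 8 libraries. The share of the 27 markers in all counts was highest in DMSO library 2, at 0.0234%. It was 0.0118% to 0.0161% in the other DMSO libraries and 0.0153% to 0.0218% in MEKi. The highest levels of the somatic markers Sox9 and Aard, 60.1 and 49.3 CPM, were also in DMSO library 2. Each of the 4 DMSO libraries carried the sample index of a library of XY 72 h MEKi germ cells in the other sequencing pool, whereas no MEKi library shared an index. The share of counts that the DMSO libraries had in common with those partners was estimated from genes nearly confined to the partner's group, at 2.09%, 6.83%, 1.49% and 2.38%, and DEGs that this moved by over 1.5 times, or whose call it ended, are given with and without it.

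After 24 h, 25 of 15252 genes tested (0.164%) were differentially expressed (DEGs) between MEKi and DMSO, 8 higher (0.0525%) and 17 lower (0.111%) with MEKi. A DEG was a gene whose change was larger than 1.5-fold at an FDR under 0.05 in limma's treat. The lower genes included the ETS factors Etv4 and Etv1, the receptor Ret, the EGR co-repressor Nab2, the apoptosis gene Pmaip1, the pyruvate dehydrogenase kinase Pdk1 and the male germline regulator Nanos2. The higher genes included the meiotic gene Stra8, Spp1, Calcoco2 and 3 globin genes. The 8 libraries did not overlap between the groups for any of the 25, while over all genes tested 4.27% did not overlap with MEKi higher and 6.24% with MEKi lower. Against no change, without the fold threshold, 341 genes were higher (2.24%) and 557 lower (3.65%), and these calls are named below as changes of any size. Of the 25, 15 were called in every fit that left out 1 of the 8 libraries and 13 under every alternative processing. The higher DEGs numbered 5 without DMSO library 4, and the changes of any size fell from 898 to 447 without MEKi library 1 and to 499 without DMSO library 5.

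**Figure D1:**
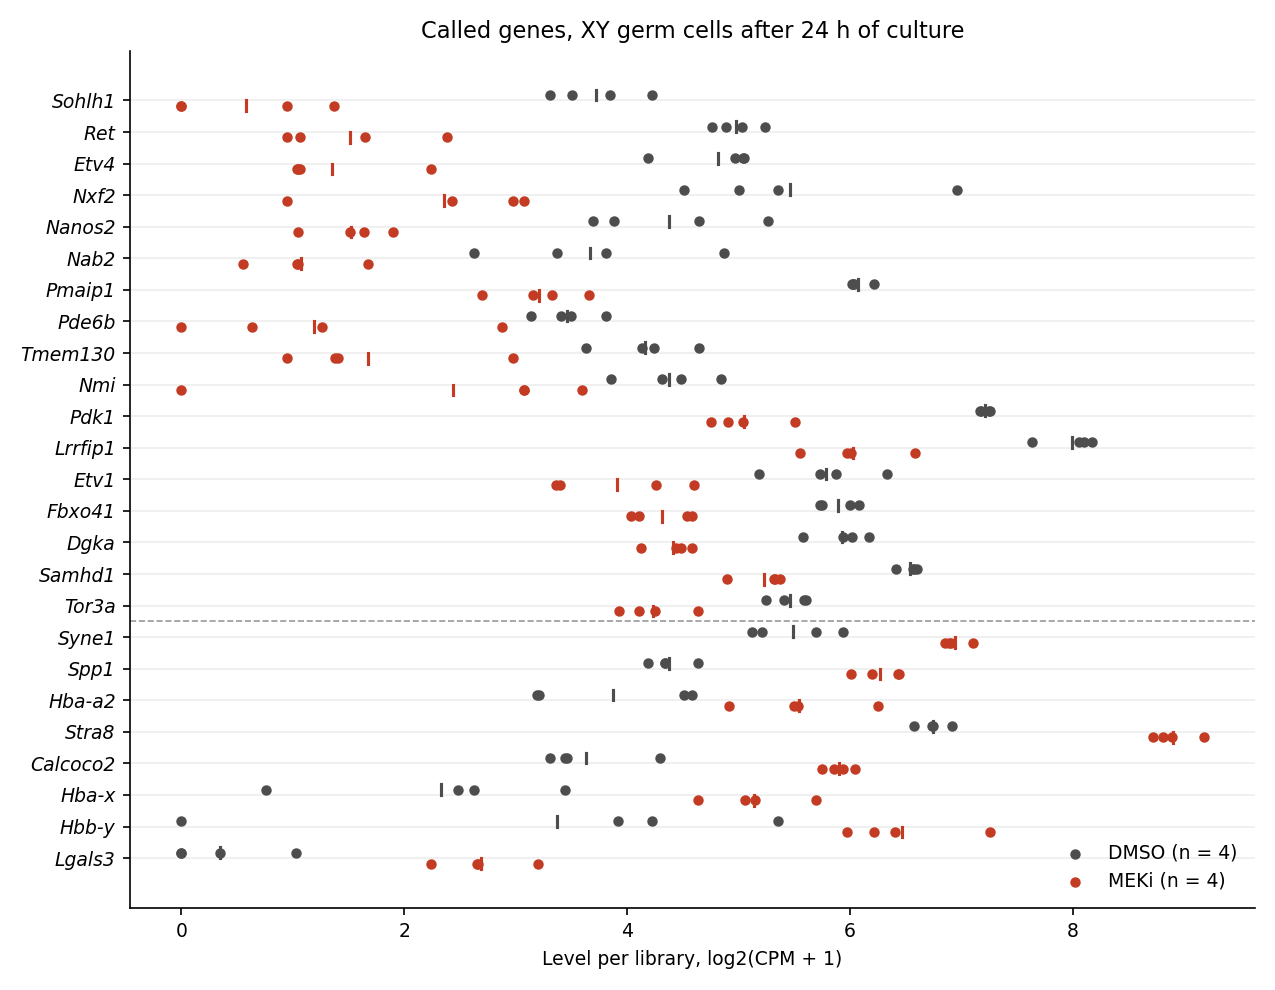
Level of each of the 25 DEGs in the 4 DMSO libraries (grey points) and the 4 MEKi libraries (red points), on the scale log2(CPM + 1), with a vertical tick at the group mean. The dashed line separates the 17 lower genes, above, from the 8 higher genes, below, and within each gene the grey and red points do not overlap.

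The transcripts of the inhibited kinases themselves were not called. Map2k1 and Map2k2, which encode MEK1 and MEK2, were at 32.1 ± 7.85 and 188 ± 11.1 CPM (SD, n = 4) in DMSO and at 38.4 ± 3.27 and 186 ± 7.83 CPM in MEKi. Mapk3, which encodes ERK1, differed by log2 -0.12 ± 0.19 (SE). Levels of these 3 genes overlapped between the groups, and PD0325901 acts on the proteins, which were not measured.

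Of 13 ERK feedback inhibitors listed, 11 were tested, and 5 of the 11 fell by a change of any size, with 0 higher. None passed the fold threshold in the main fit (0 of 11). The fitted difference was below 0 for 9 and above 0 for 2, with a median of log2 -0.76, against -0.02 over all genes tested. Dusp9, a phosphatase of ERK, fell from 33.1 ± 6.43 to 11.1 ± 1.70 CPM (log2 -1.52, SE 0.24, FDR 1.60e-05 against no change). It passed the fold threshold with edgeR, with DESeq2, with a replicate block and without DMSO library 3. Dusp6, the cytoplasmic ERK phosphatase, fell from 27.0 ± 4.54 to 12.8 ± 5.93 CPM (log2 -1.22, SE 0.25, FDR 0.00138). Spry2, which acts upstream of RAS and RAF, fell from 23.3 ± 4.09 to 8.72 ± 1.27 CPM, a factor of 2.61. For these 3 genes no DMSO library was as low as any MEKi library. Dusp4 fell 1.92-fold with overlapping libraries. Spry4 fell 5.15-fold, from 6.17 ± 2.14 to 2.07 ± 2.57 CPM, but without MEKi library 6 the fitted difference moved from log2 -2.37 to -1.54 and its call was lost (FDR 0.0972).

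Of 17 ETS factors, 15 were tested, and Etv4 and Etv1 were called lower with 0 higher. Etv4, a factor of the PEA3 subfamily downstream of FGF and ERK in many tissues, lies on chromosome 11 (101660568 to 101676197, GRCm39). It was at 32.1, 17.2, 32.0 and 30.3 CPM in the DMSO libraries and at 3.71, 1.06, 1.06 and 1.10 CPM in the MEKi libraries. The MEKi libraries were all lower than the lowest DMSO library, with a log2 difference of -3.96 (SE 0.46, FDR 1.24e-06), or 15.6-fold. Etv1, of the same subfamily (chromosome 12, 38828851 to 38920483), was at 57.5, 35.4, 79.8 and 51.9 CPM in DMSO and at 18.1, 9.56, 23.3 and 9.31 CPM in MEKi. It fell by 1.92 on the log2 scale (SE 0.24, FDR 0.000689), with the lowest DMSO library above the highest MEKi library. Etv5, the remaining member of the subfamily, had a smaller fitted difference, from 127 ± 31.5 to 75.9 ± 9.35 CPM, which was called only against no change (log2 -0.79, SE 0.14, FDR 9.41e-05). Elf3, an epithelial ETS factor, had the opposite sign (3.96 ± 1.15 v 14.5 ± 8.0 CPM, overlapping), and its call of any size was lost without any 1 of 6 of the 8 libraries, with FDRs of 0.0563 to 0.17. The median over the 15 was log2 0.08, with 6 of the 15 below 0 and 9 above.

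The immediate early genes did not move in 1 direction. Of 27 listed, 22 were tested, of which 3 rose and 4 fell by a change of any size (median log2 -0.21). Nab2, a co-repressor of EGR factors that is induced by them, was the only DEG of the list (chromosome 10, 127496786 to 127504458). It was at 9.33, 28.1, 5.16 and 13.0 CPM in DMSO and at 0.464, 1.06, 1.06 and 2.19 CPM in MEKi, where no library held more than 4 counts. The groups did not overlap (log2 -3.15, SE 0.55, FDR 0.00847), and the call was lost without MEKi library 1 (FDR 0.175) and with a replicate block (0.066). Some exons of Nab2 lie over exons of Stat6 and Nemp1 on the opposite strand, and whether counting used strand is not given in the sources used here. Egr1, an EGR factor, rose from 30.9 ± 11 to 67.6 ± 8.03 CPM for a change of any size (log2 1.33, SE 0.23, FDR 7.85e-05), without overlap. Egr4, of the same family, had the opposite sign, 33.2 ± 13.4 against 11.3 ± 6.30 CPM (log2 -1.67, SE 0.29, FDR 0.000142 against no change and 0.129 against 1.5-fold), and 1 or more libraries overlapped. Egr4 was called against 1.5-fold with edgeR, without DMSO library 2 and without MEKi library 4, and Egr1 with the 8 libraries alone. Mycn fell 1.40-fold. The calls of Ier2 and Jun, both higher 1.63-fold, and of Nab1, lower 1.53-fold, were each lost without DMSO library 5 (FDR 0.116, 0.261 and 0.439), and those of Jun and Nab1 also without others.

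Ret, the receptor tyrosine kinase for GDNF family ligands, was the only DEG among 31 tested genes of the receptors and the RAS-MEK-ERK cascade (chromosome 6, 118128706 to 118174769). Its level was 28.5, 26.0, 36.8 and 31.6 CPM in DMSO and 0.929, 2.12, 4.23 and 1.10 CPM in MEKi. MEKi libraries held 2 to 8 counts each, all far below the lowest DMSO library, with a log2 difference of -4.03 (SE 0.49, FDR 3.83e-06), or 16.3-fold. Igf1r, the receptor of insulin-like growth factor 1, fell 1.53-fold (106 ± 6.27 v 69.7 ± 5.77 CPM) and Sos2, a RAS exchange factor, rose 1.97-fold (12.1 ± 3.19 v 22.1 ± 1.64 CPM), both for a change of any size and both without overlap. The list had a median of log2 -0.12.

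**Figure D2:**
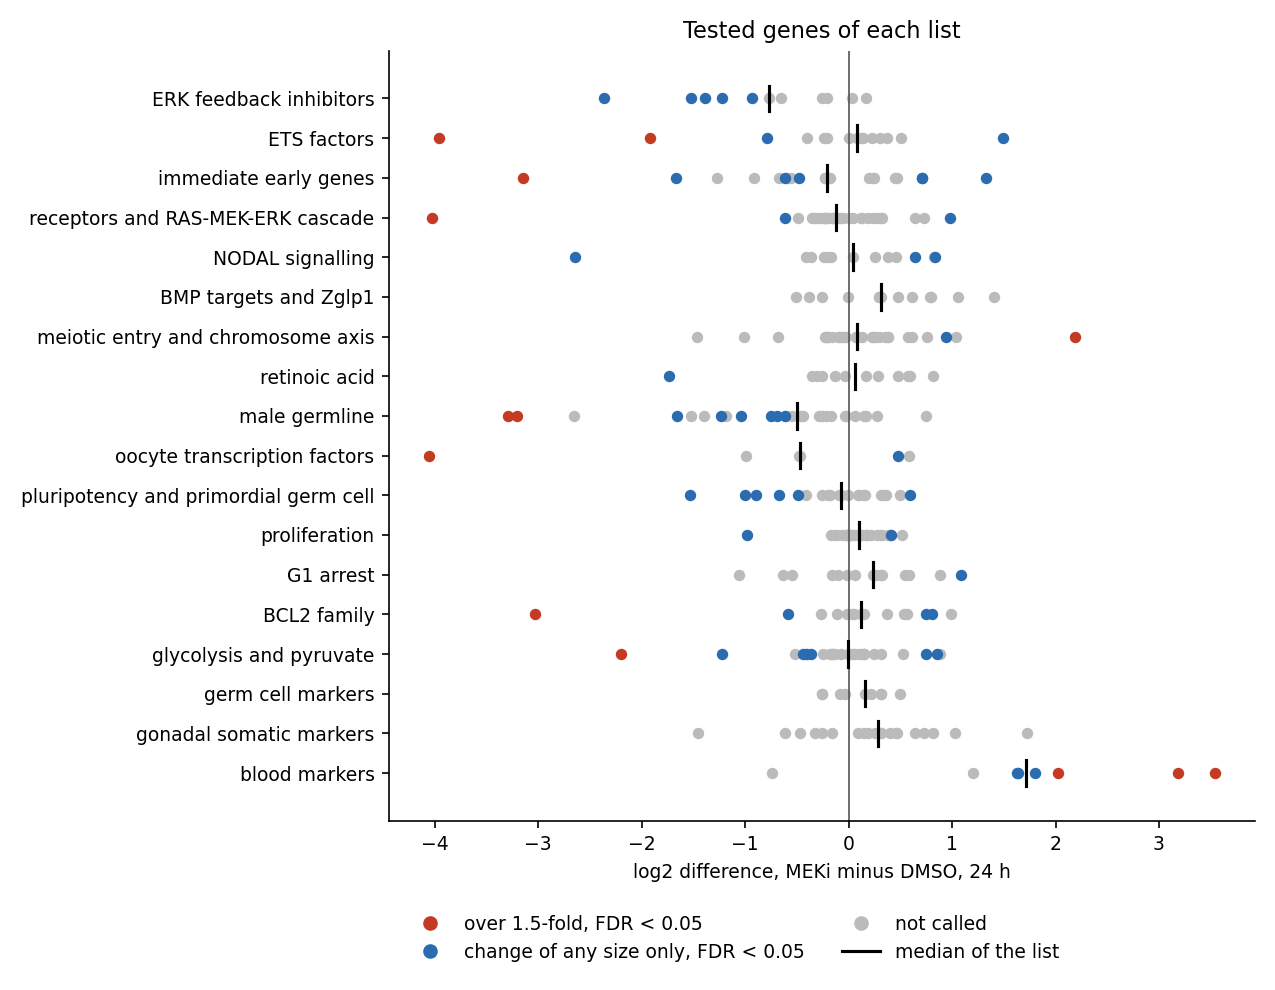
Log2 difference, MEKi minus DMSO at 24 h, for each tested gene of the 18 lists, with red points for DEGs, blue points for changes of any size and grey points for genes not called. A black tick marks each list's median, which is at -0.76 for the ERK feedback inhibitors, -0.50 for the male germline genes and 1.72 for the blood markers.

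Pmaip1, Pdk1 and Lrrfip1 had the smallest adjusted p among the lower genes. Pmaip1, which encodes the pro-apoptotic BH3-only protein NOXA (chromosome 18, 66591604 to 66598636), was at 63.8, 64.6, 64.3 and 73.3 CPM in DMSO and at 7.89, 9.03, 11.6 and 5.48 CPM in MEKi. It was lower in every MEKi library, by 8.16-fold (log2 -3.03, SE 0.26, FDR 1.25e-09). It was the only DEG of 15 tested genes of the BCL2 family. The calls of any size for Bmf, Bik (higher) and Bcl2l1 (lower) in that list were each lost without 2 to 6 of the libraries, at FDRs from 0.0506 to 0.234.

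Pdk1, a kinase that switches off pyruvate dehydrogenase and so directs pyruvate away from the mitochondrion (chromosome 2, 71703488 to 71734202), was at 143, 152, 151 and 143 CPM in DMSO and at 26.0, 31.9, 44.4 and 29.0 CPM in MEKi. The spread in DMSO was small, 147 ± 5.06 CPM, and the fall was 4.60-fold (log2 -2.20, SE 0.17, FDR 2.07e-09). Among 27 tested genes of glycolysis and pyruvate use, Pdk1 was the only DEG, with 2 higher and 5 lower for a change of any size and a median of log2 -0.01. Both higher calls, Ldha and Hk1, were lost without DMSO library 5 (FDR 0.217 and 0.2), and the lower calls of Pdha1, Pdk3 and Aldoc were each lost without any 1 of 3 to 6 libraries (FDR 0.0519 to 0.136). Eno1, an enolase, fell 1.36-fold, from 257 ± 41.6 to 179 ± 3.53 CPM. Lrrfip1, which encodes a nucleic acid-binding protein (chromosome 1, 90926445 to 91058477), was at 287, 197, 265 and 272 CPM in DMSO and at 61.8, 63.2, 94.7 and 46.0 CPM in MEKi. It fell 4.11-fold in libraries that did not overlap (log2 -2.04, SE 0.14, FDR 4.73e-11).

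Of 28 male germline genes listed and tested, 8 fell by a change of any size, 2 of them as DEGs in the test against 1.5-fold, and 0 rose. The fitted difference was below 0 for 23 of the 28 (median log2 -0.50) and for 8050 of all 15252 genes tested. Their summed level overlapped between the groups, at 1616 to 2852 CPM in DMSO and 1534 to 1640 CPM in MEKi. Nanos2, an RNA-binding repressor that marks and maintains male germ cell fate (chromosome 7, 18721325 to 18722887), was at 11.9, 37.5, 13.8 and 24.1 CPM in DMSO and at 1.86, 1.06, 2.12 and 2.74 CPM in MEKi. All 4 MEKi libraries were below the lowest DMSO library, with 2 to 5 counts each, and the fall was 9.22-fold (log2 -3.20, SE 0.50, FDR 0.00152). Before culture, Nanos2 was at 0.853 ± 0.354 CPM in XY germ cells, so the level with MEKi was between that of 0 h and that of 24 h DMSO. Tdrd5 and Tdrd1, Tudor proteins of the piRNA pathway, fell 1.62-fold (145 ± 21.4 v 90.1 ± 14.9 CPM) and 2.35-fold (30.2 ± 13.0 v 11.7 ± 4.59 CPM), and Piwil2, a piRNA-binding protein, fell 1.54-fold (111 ± 8.59 v 73.0 ± 10.4 CPM), each for a change of any size and without overlap. Morc1, Piwil4 and Nanos3 also fell, and these calls were lost without DMSO library 5 (FDR 0.054) for Morc1, without MEKi library 4 (0.0681) for Piwil4, and without DMSO library 3 or 5 or MEKi library 2 (0.0585 to 0.0813) for Nanos3.

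Nxf2, an mRNA export factor on the X chromosome (133845274 to 133865516), and Sohlh1, a helix-loop-helix factor of germ cells (chromosome 2, 25733007 to 25737351), were DEGs whose DMSO counts were small next to those of the partner libraries with the same sample index. Sohlh1 was at 10.4, 17.7, 13.4 and 8.93 CPM in DMSO, or 20, 34, 39 and 33 counts, which equal 7.14%, 7.17%, 4.40% and 4.17% of its counts in the partners, and at 0.929, 0, 1.59 and 0 CPM in MEKi (log2 -4.06, SE 0.73, FDR 0.0058). With the shared counts taken out at the estimated shares the log2 difference was -2.88 (FDR 0.766), and at a fixed share of 5% it turned to 0.14 (FDR 1). The call was also lost without MEKi library 6 (FDR 0.0732). Nxf2 was at 21.8, 123, 39.9 and 31.1 CPM in DMSO and at 0.929, 7.44, 6.88 and 4.38 CPM in MEKi (log2 -3.29, SE 0.63, FDR 0.0284). Its DMSO counts equal 6.15%, 21.2%, 5.40% and 5.91% of those in the partners, and with the shared counts taken out the difference was log2 -2.67 (FDR 0.233) at the estimated shares and -0.89 (FDR 1) at 5%. The FDR was 0.06 to 0.49 without any 1 of the MEKi libraries, and the difference was log2 -2.55 without library 1. Piwil4 of the male germline list lost its call of any size with the shared counts taken out, and Tdrd1 did so at the fixed 5%. The other DEGs apart from the globin gene Hba-a2 were called with and without the shared counts.

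Stra8, required for meiotic entry in both sexes, was the higher DEG with the smallest adjusted p (chromosome 6, 34897098 to 34916279). It was at 94.4, 119.8, 106 and 106 CPM in DMSO and at 447, 421, 472 and 576 CPM in MEKi. Each MEKi library was above each DMSO library, by 4.56-fold between the groups (log2 2.19, SE 0.17, FDR 2.07e-09). Without a filter on low counts the call was lost (FDR 0.0624, log2 2.12), and the reason was not tested. The DMSO counts of Stra8 equal 7.77%, 8.64%, 7.16% and 9.47% of those in the partner libraries with the same index. With the shared counts taken out at the estimated shares the difference was log2 2.80 (FDR 2.56e-11), or 6.96-fold, and at a fixed share of 5% it was 3.42, or 10.7-fold. For scale, XX germ cells after 24 h in DMSO held 972 ± 263 CPM and XY germ cells before culture held 8.72 ± 3.29 CPM. Stra8 was the only DEG among 31 tested genes of meiotic entry and the chromosome axis, whose median was log2 0.08. Rec8, the meiotic cohesin subunit, rose from 36.4 ± 4.25 to 73.3 ± 15.2 CPM for a change of any size (log2 0.95, SE 0.18, FDR 0.000319), without overlap. Terb2, which tethers telomeres in meiosis, had non-overlapping values of 6.51 ± 1.46 and 13.2 ± 3.22 CPM that did not pass (FDR 0.0569). 

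The promoters of 4 DEGs are shown because they belong to Nanos2 and Stra8, the male and the meiotic marker among the DEGs, and to Sohlh1 and Hbb-y, the lower and the higher gene of largest fold change, with the shared counts left in, whose promoter held a searched motif. With those counts taken out Sohlh1 no longer holds that rank. Each is 300 bases from RefSeq (GRCm38.p6), 250 before and 50 after the start site, written 5′ to 3′ on the gene's strand with motif matches in capitals, and was found once by exact match on its chromosome in GRCm39. They lie at chr7:18721199-18721498 (Nanos2, plus strand), chr6:34897633-34897932 (Stra8, plus strand), chr2:25737211-25737510 (Sohlh1, minus strand) and chr7:103502365-103502664 (Hbb-y, minus strand).
Nanos2: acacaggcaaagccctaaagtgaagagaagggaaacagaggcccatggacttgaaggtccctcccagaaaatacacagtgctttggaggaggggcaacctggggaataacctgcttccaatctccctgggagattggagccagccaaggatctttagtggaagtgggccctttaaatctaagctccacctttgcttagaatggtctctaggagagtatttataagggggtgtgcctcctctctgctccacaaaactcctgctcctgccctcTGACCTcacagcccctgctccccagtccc
Stra8: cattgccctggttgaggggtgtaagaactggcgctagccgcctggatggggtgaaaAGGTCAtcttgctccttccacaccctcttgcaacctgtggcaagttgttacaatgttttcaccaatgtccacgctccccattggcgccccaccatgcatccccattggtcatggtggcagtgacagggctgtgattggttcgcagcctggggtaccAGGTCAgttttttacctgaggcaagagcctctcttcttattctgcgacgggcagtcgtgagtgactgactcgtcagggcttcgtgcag
Sohlh1: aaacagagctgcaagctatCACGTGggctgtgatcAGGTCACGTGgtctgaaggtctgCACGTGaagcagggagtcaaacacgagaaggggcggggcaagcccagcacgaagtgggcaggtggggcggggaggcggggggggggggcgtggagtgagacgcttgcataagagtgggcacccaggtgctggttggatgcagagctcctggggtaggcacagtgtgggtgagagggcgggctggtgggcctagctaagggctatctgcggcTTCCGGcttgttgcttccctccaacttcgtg
Hbb-y: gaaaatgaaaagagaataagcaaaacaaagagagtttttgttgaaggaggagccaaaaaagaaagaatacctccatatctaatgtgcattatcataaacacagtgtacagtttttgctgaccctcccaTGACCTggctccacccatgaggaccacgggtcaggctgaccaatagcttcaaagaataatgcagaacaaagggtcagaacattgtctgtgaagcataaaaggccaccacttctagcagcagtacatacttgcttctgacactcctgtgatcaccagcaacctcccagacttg
The nuclear receptor motif AGGTCA, or TGACCT on the other strand, stood once in the promoter of Nanos2 and of Hbb-y and at 2 places in that of Stra8. The Sohlh1 promoter held 3 copies of the E-box CACGTG, of which 1 overlaps an AGGTCA motif, and 1 copy of the ETS motif CCGGAA, read on the other strand as TTCCGG. Promoters were matched for 20 of the 25 DEGs, with 30 start sites in all. Searched on both strands, CCGGAA was in 3 of the 30 and in 14.9% of all 32851 promoters of the table, AGGTCA in 6 and in 16.3%, CACGTG in 3 and in 7.15%, the AP-1 site TGANTCA in 1 and in 7.81%, and the CRE TGACGTCA in 0 and in 1.79%.

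The signals that act around the choice of germ cell fate showed few calls. Of 12 tested retinoic acid genes only Rarg, a retinoic acid receptor, changed, from 13.2 ± 2.76 to 4.25 ± 2.38 CPM (log2 -1.74, SE 0.38, FDR 0.00265 for any size), without overlap. Of 13 tested BMP targets 0 were called by either test, although Irx3 had non-overlapping values of 1.91 ± 1.45 and 5.34 ± 1.63 CPM. Zglp1, which was on that list, could not be matched by name. In NODAL signalling, of 13 tested, Lefty1, an inhibitor of NODAL, rose 1.56-fold (99.1 ± 27.5 v 157 ± 12.9 CPM) for a change of any size. Cripto, the NODAL co-receptor also known as Tdgf1, had the opposite sign, 9.23 ± 4.07 against 2.07 ± 2.26 CPM with overlapping libraries (log2 -2.65, SE 0.54, FDR 0.0953 against 1.5-fold and 0.00115 against no change). It was called against 1.5-fold without MEKi library 4, where the difference was log2 -3.29, and was at log2 -1.82 without MEKi library 6.

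Among 21 tested pluripotency and primordial germ cell genes, 5 fell and 1 rose by a change of any size, with a median of log2 -0.07. Lin28a and Trim71, regulators of the let-7 pathway, fell 2.00-fold (57.5 ± 10.0 v 28.9 ± 7.05 CPM) and 1.60-fold (197 ± 19.0 v 124 ± 18.5 CPM) without overlap, and Utf1, a chromatin protein of pluripotent cells, fell 1.40-fold (588 ± 105 v 410.4 ± 58.3 CPM) with overlap. The calls of Sox15, Sox3 and Dppa5a were each lost without 3 or 4 of the libraries, at FDRs from 0.0512 to 0.131. Sox3 also lost its call with the shared counts taken out (FDR 0.0761 at the estimated shares and 0.225 at 5%). Of 30 tested proliferation genes, Cdk6, a kinase of the G1 phase, fell from 90.6 ± 9.41 to 47.0 ± 12.6 CPM for a change of any size (log2 -0.98, SE 0.16, FDR 6.13e-05) without overlap. Mcm3 rose 1.32-fold, a call lost without DMSO library 3 or 5 (FDR 0.069 and 0.082), and the other 28 were not called. Of 15 tested genes of G1 arrest, Gadd45b alone was called, higher 2.13-fold, and the call was lost without DMSO library 5 (FDR 0.054). Sohlh2, of 6 tested oocyte factors, rose 1.39-fold (94.0 ± 11 v 133 ± 6.45 CPM, FDR 0.00778 for any size). Foxo3, also on that list, was at 95.4 ± 24.8 and 66.9 ± 18.0 CPM and was not called.

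Spp1, Calcoco2 and Syne1, like Stra8 and the globin gene Hba-x, were higher DEGs in every fit that left out a library. Spp1, the secreted phosphoprotein osteopontin (chromosome 5, 104582165 to 104589235), was at 23.8, 19.3, 17.2 and 19.2 CPM in DMSO and at 85.0, 72.2, 63.5 and 86.0 CPM in MEKi. It rose 3.90-fold (log2 1.96, SE 0.17, FDR 1.27e-07), with the lowest MEKi library far above the highest DMSO library. Calcoco2, the autophagy receptor NDP52 (chromosome 11, 95989742 to 96002818), was at 18.7, 9.90, 9.97 and 8.93 CPM in DMSO and at 60.4, 56.8, 52.9 and 65.2 CPM in MEKi. It rose 5.44-fold (log2 2.44, SE 0.26, FDR 3.46e-06), and DMSO library 2 stood above the other 3. Syne1, a nuclear envelope protein that links the nucleus to the cytoskeleton (chromosome 10, 4970266 to 5501482), was at 33.7, 35.9, 60.2 and 50.9 CPM in DMSO and at 119, 115, 136 and 118 CPM in MEKi. Its rise was the smallest of the 8, 2.65-fold (log2 1.40, SE 0.16, FDR 0.00135).

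Of the remaining lower DEGs, Samhd1, Dgka and Tmem130 were called in every fit that left out a library, and Fbxo41 in all but 1. Samhd1, an enzyme that hydrolyses dNTPs (chromosome 2, 156939453 to 156977187), was at 94.4, 95.9, 84.2 and 93.9 CPM in DMSO and at 28.8, 38.8, 39.2 and 40.5 CPM in MEKi. The groups were 2.57-fold apart (log2 -1.36, SE 0.14, FDR 0.000586). Dgka, a kinase that converts the lipid messenger diacylglycerol to phosphatidic acid (chromosome 10, 128554743 to 128584282), was at 63.8, 70.8, 46.8 and 60.1 CPM in DMSO and at 21.4, 16.5, 20.6 and 23 CPM in MEKi. It was lower 2.87-fold in non-overlapping libraries (log2 -1.52, SE 0.18, FDR 0.00184), and some of its exons lie over exons of Pmel and Pym1 on the opposite strand.

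Fbxo41, an F-box protein (chromosome 6, 85446556 to 85480016), was at 52.9, 66.7, 51.9 and 63.0 CPM in DMSO and at 16.3, 15.4, 22.2 and 23 CPM in MEKi. It fell 3.08-fold (log2 -1.62, SE 0.20, FDR 0.00213), without overlap, and the call was lost without MEKi library 1 (FDR 0.0576). Tmem130, a transmembrane protein (chromosome 5, 144672707 to 144698997), was at 11.4, 24.0, 16.5 and 17.9 CPM in DMSO and at 0.929, 1.59, 6.88 and 1.64 CPM in MEKi. MEKi library 4 was the highest of its group and still below the lowest DMSO library, and the fall was 7.59-fold (log2 -2.92, SE 0.42, FDR 0.000689).

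The other 3 lower DEGs, Nmi, Tor3a and Pde6b, were close to the threshold. Nmi, a partner of MYC and STAT proteins (chromosome 2, 51838450 to 51863506), was at 13.5, 21.4, 18.9 and 27.6 CPM in DMSO and at 7.43, 7.44, 11.1 and 0 CPM in MEKi (log2 -2.59, SE 0.48, FDR 0.0387). MEKi library 6 held no count, and without it the log2 difference was -1.31 (FDR 1). Tor3a, a torsin ATPase (chromosome 1, 156481183 to 156501979), was at 41.5, 37.0, 47.8 and 47.1 CPM in DMSO and at 16.3, 18.1, 23.8 and 14.2 CPM in MEKi (log2 -1.33, SE 0.18, FDR 0.0434), and some of its exons lie over those of Abl2 on the opposite strand. Pde6b, the catalytic beta subunit of the rod phosphodiesterase (chromosome 5, 108536243 to 108580263), was at 7.78, 13.0, 9.63 and 10.3 CPM in DMSO and at 1.39, 0, 6.35 and 0.548 CPM in MEKi (log2 -2.95, SE 0.58, FDR 0.0485). For each of the 3 genes the DMSO libraries were all above the MEKi libraries. The calls were lost with edgeR (FDR 0.0624 to 0.087), without DMSO library 4 or 5 for each of them (FDR 0.0823 to 0.439), without MEKi library 1, 2 or 6 for Tor3a and Pde6b (0.119 to 0.497), and without DMSO library 3 for Pde6b (0.0693). The difference of Pde6b was log2 -2.33 without MEKi library 2 and -3.70 without MEKi library 4.

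The genes next to the threshold are listed for what they show of its position. Gmpr, a GMP reductase, was at 27.5 ± 8.57 CPM in DMSO and 8.66 ± 4.19 CPM in MEKi (log2 -1.60, SE 0.25, FDR 0.0579), and Dusp9 followed at 0.0587. Bnc1, a zinc finger protein, and Cbr3, a carbonyl reductase, had FDRs of 0.153 and 0.124 with lower values in MEKi, and Ephx2, an epoxide hydrolase, and Scnn1a, a sodium channel subunit, had FDRs of 0.129 and 0.162 with higher values. Ephx2 was called against 1.5-fold with edgeR, with DESeq2, with the 8 libraries alone and with the shared counts taken out (log2 2.08 at the estimated shares and 2.73 at 5%, against 1.66), and its DMSO counts equal 6.12% to 14.0% of those in the partners. Gm38042, of which no product is described, held 28 counts over the DMSO libraries and 0 in every MEKi library, at least 6.92-fold lower against a floor of 3 counts over the group.

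Haemoglobin genes were higher with MEKi. Hbb-y and Hba-x, embryonic globins, and the adult alpha globin Hba-a2 were DEGs, and 6 of 8 tested blood markers, of 17 listed, rose by a change of any size with 0 lower (median log2 1.72). Of the 6, Hbb-bs and Hbb-bt, adult beta globins, lost that call without DMSO library 5 (FDR 0.157 and 0.199), with edgeR (0.152 and 0.0711) and with DESeq2 (0.359 and 0.2). Hbb-y (chromosome 7, 103500956 to 103502423) was at 39.9, 17.7, 0 and 14.1 CPM in DMSO and at 83.6, 73.3, 61.9 and 152 CPM in MEKi (log2 3.55, SE 0.62, FDR 0.00545). Hba-x (chromosome 11, 32226400 to 32228116) was at 5.18, 9.90, 0.688 and 4.60 CPM in DMSO and at 34.4, 23.9, 32.3 and 50.9 CPM in MEKi (log2 3.18, SE 0.47, FDR 0.000696). DMSO library 4 had the lowest value of both genes, and without it Hbb-y was at log2 2.06 (FDR 0.109), and Hba-x was at log2 2.59 and still called, while without DMSO library 5 the FDR of Hbb-y was 0.0885 and Hba-a2 was at log2 1.41. With DESeq2 tested against 1.5-fold, none of these globins was called (adjusted p = 1 for each), and with edgeR only Hba-x was. Hba-a2 (chromosome 11, 32246168 to 32247320) was at 21.8, 22.9, 8.25 and 8.12 CPM in DMSO and at 44.1, 45.2, 29.1 and 75.0 CPM in MEKi (log2 2.02, SE 0.35, FDR 0.0441). It is nearly identical to Hba-a1, so that reads may be split between them, and its call was lost without any 1 of 5 libraries (FDR 0.0922 to 1) and with the shared counts taken out (0.0696).

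The blood markers summed to 43.7 to 149 CPM in DMSO and to 220.1 to 555 CPM in MEKi, or 0.00925 ± 0.00463% and 0.0316 ± 0.0140% of all counts. The groups did not overlap (exact permutation test, two-sided, p = 0.0286, the smallest that 4 against 4 libraries allow, and 0.143 adjusted over 5 library measures). XY germ cells before culture reached 0.0376% in 1 library, so values of this order also occurred without the inhibitor. Among the defining markers other than globins, Epor was at 0 in all 8 libraries, Alas2 held 11 counts over the DMSO libraries and 3 over the MEKi libraries, and Klf1 held 8 in each group. The leucocyte and platelet markers had few counts, of which most were higher with MEKi over the group: 1 against 4 for Ptprc, 17 against 26 for Cd68, 2 against 10 for C1qb, 4 against 11 for Tyrobp and 0 against 4 for Pf4, with 3 against 1 for C1qa. Whether red blood cells or their free RNA in the sorted samples, rather than a change within germ cells, account for the globin counts was not tested, and in bulk RNA fewer cells of a type and less RNA per cell cannot be told apart for any gene here.

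Lgals3, galectin 3, a sugar-binding protein of macrophages and many epithelia (chromosome 14, 47605208 to 47623624), was at 0, 1.04, 0 and 0.271 CPM in DMSO and at 3.71, 5.31, 5.29 and 8.21 CPM in MEKi (log2 3.90, SE 0.68, FDR 0.00383). The groups did not overlap, but the DMSO libraries held 3 counts in all against 43 in MEKi, a ratio of 19.3 with an exact 95% counting interval of 6.19 to 97.4. The call was lost without DMSO library 4 (FDR 0.0586) and with DESeq2 (0.114). The blood marker values above moved with it, and their part in the result was not tested.

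The 24 h DEGs were then followed in XY germ cells cultured for 72 h in DMSO or in 500 nM MEKi, 4 libraries each, which are separate libraries from the second pool. Of the 25 genes, 12 were called at 72 h in the same direction and 0 in the other, where 4.01% of all genes tested were called higher and 5.11% lower. Stra8 and Spp1 were the 2 of 8 higher genes, and Pmaip1, Pdk1, Etv4, Ret, Tmem130, Nanos2, Dgka, Fbxo41, Nab2 and Nxf2 the 10 of 17 lower genes. Stra8 was at 102 ± 28.5 and 948 ± 186 CPM at 72 h (log2 3.18, SE 0.16), beside a 24 h difference of 2.19, or 3.42 with 5% of the partner counts taken out, and the difference between the times, 0.99 (SE 0.24), was called against no change (FDR 0.00173) but not against 1.5-fold (FDR 0.508). Spp1 differed by log2 1.94 (SE 0.18) at 72 h. Nanos2 was at 27.3 ± 1.30 CPM in 72 h DMSO and 10.5 ± 3.38 CPM in 72 h MEKi (log2 -1.25, SE 0.23, FDR 0.0377), above its 24 h MEKi level. Ret was at 22.6 ± 1.45 and 6.28 ± 2.89 CPM (log2 -1.78, SE 0.27). The DMSO libraries of 24 h carry the indexes of the 72 h MEKi libraries, so the libraries of the times are not wholly free of each other.

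The effect of MEKi at 72 h less that at 24 h was itself called against 1.5-fold for 4 of the 25 genes, where 1.21% of all genes were called higher and 0.675% lower. The globins Hba-x (-4.84 on the log2 scale, SE 1.15, FDR 0.0219) and Hba-a2 (-2.86, SE 0.67, FDR 0.0381) and Lgals3 (-5.96, SE 0.88, FDR 6.59e-05) were higher with MEKi at 24 h and had lower values with MEKi than DMSO at 72 h, none of them called there against 1.5-fold, although Lgals3 was called against no change (log2 -2.05, FDR 0.0024). Sohlh1 had a smaller difference at 72 h (225 ± 19.6 v 160.1 ± 19.3 CPM, interaction 3.57, SE 0.74, FDR 0.0107), with the limit given above for its 24 h counts. Of the other 21 genes, 11 differed between the times against no change, where 13.7% of all genes were called higher and 9.49% lower by that rule. They were Lrrfip1, Pmaip1, Pdk1, Stra8, Ret, Samhd1, Syne1, Nanos2, Nxf2, Nmi and Tor3a, and for 10 of them, Stra8 being the exception, the fitted difference was nearer 0 at 72 h. With 5% of the partner counts taken out at 24 h this order turned for Nxf2 (log2 -0.89 at 24 h and -1.33 at 72 h) and for Stra8 (3.42 and 3.18). Ret, for example, had an interaction of 2.24 (SE 0.56, FDR 0.0903 against 1.5-fold and 0.00234 against no change). The libraries by which the DEGs were called at 24 h also enter this difference. The feedback inhibitors, with a median of log2 -0.76 at 24 h, had a median of 0.47 at 72 h and 0 DEGs in either direction there. The male germline list, with 2 of 28 called lower at 24 h, had 18 called lower and 1 higher at 72 h, and the proliferation list had 12 of 30 called higher at 72 h against 0 at 24 h.

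**Figure D3:**
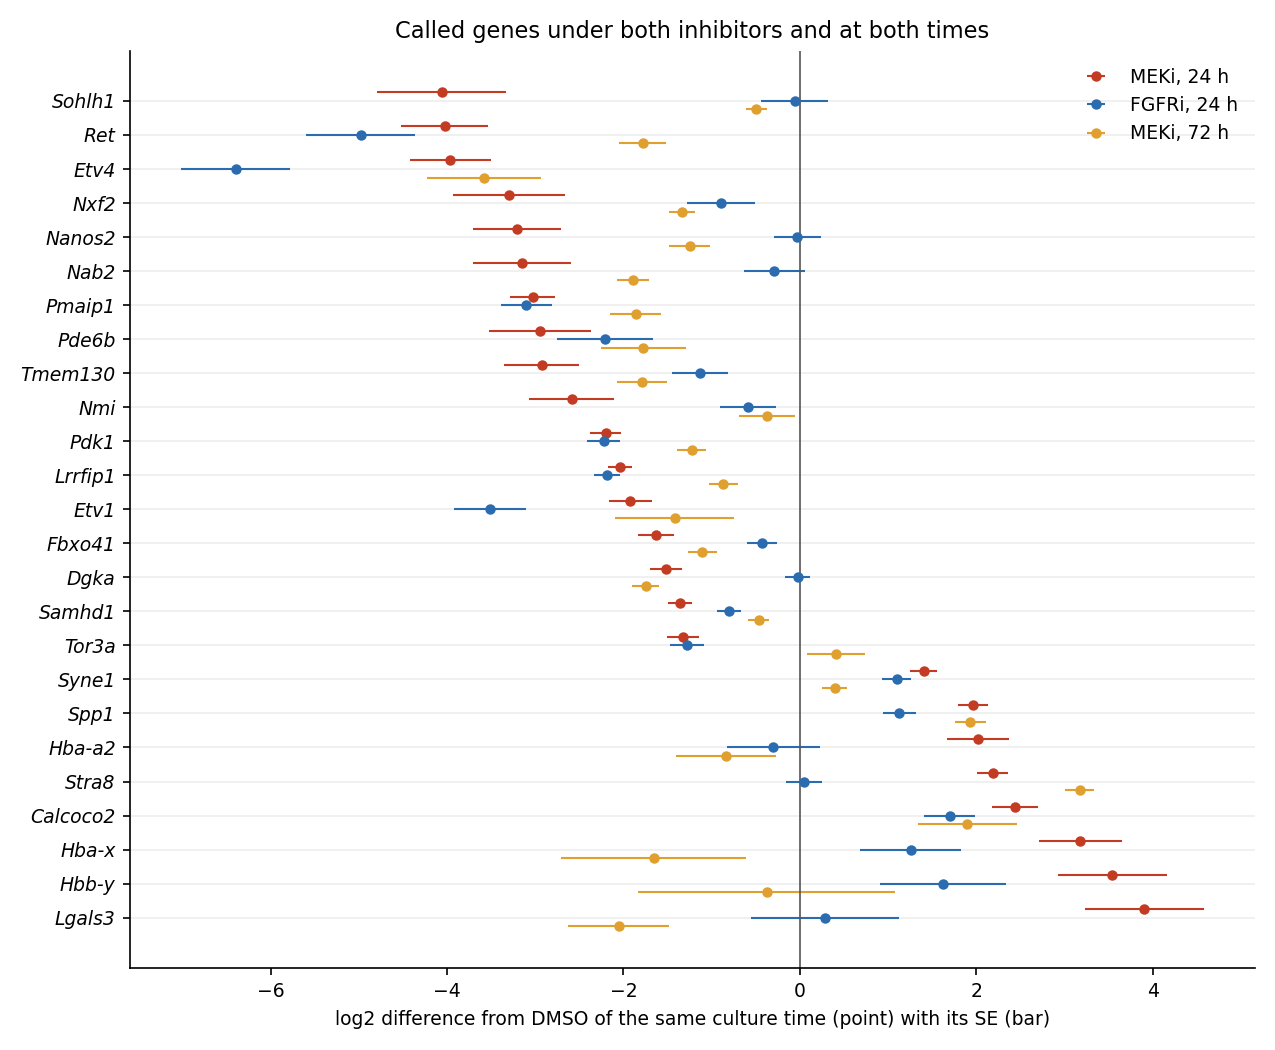
Log2 difference from DMSO (point) with its SE (bar) for the 25 DEGs, for MEKi at 24 h (red), FGFRi at 24 h (blue) and MEKi at 72 h (orange). Etv4, Ret, Pmaip1, Pdk1 and Lrrfip1 lie to the left of 0 in all 3, Stra8, Nanos2 and Dgka lie near 0 for FGFRi only, and the fitted FGFRi value of Etv4 rests on libraries with no count.

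The levels were set beside those of XY germ cells cultured for 24 h with BGJ398 (Infigratinib, 500 nM, here FGFRi). It inhibits FGF receptors, which are only some of the receptors that feed the cascade. That contrast uses the same 4 DMSO libraries, and its FGFRi libraries are in the other pool, so pool and inhibitor cannot be told apart and the values are a description. It called 0.131% of all genes higher and 0.131% lower, among them 6 of the 17 lower genes, Lrrfip1, Pmaip1, Pdk1, Etv4, Ret and Etv1, and 0 of the 8 higher genes. The fitted FGFRi difference was above 0 for 7 of the 8. Calcoco2 was at 34.8 ± 5.40 CPM with FGFRi (FDR 0.0507 against 1.5-fold), Spp1 at 43.5 ± 3.76 CPM and Syne1 at 97.9 ± 7.83 CPM, each called higher than DMSO against no change, a rule that called 2.75% of all genes higher and 3.59% lower, by 3.24-fold, 2.19-fold and 2.14-fold. Pmaip1 was at 7.86 ± 3.06 CPM with FGFRi and 8.51 ± 2.56 CPM with MEKi, Pdk1 at 31.9 ± 7.35 and 32.8 ± 8.10 CPM, and Lrrfip1 at 57.3 ± 0.940 and 66.4 ± 20.4 CPM. Etv4 had no count in the FGFRi libraries, at least 57.6-fold lower than in DMSO against a floor of 3 counts over the group. Stra8 was at 109 ± 10.0 CPM with FGFRi, Nanos2 at 19.6 ± 3.18 CPM and Dgka at 57.8 ± 8.40 CPM, next to 106 ± 10.4, 21.8 ± 11.7 and 60.4 ± 10.1 CPM in DMSO. The MEKi levels of these 3 genes, 479 ± 68.0, 1.94 ± 0.694 and 20.4 ± 2.78 CPM, were apart from both.

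Culture and sex gave further reference levels, again with the same DMSO libraries. The XX libraries also share indexes, with XY 72 h FGFRi libraries, at estimated shares of 3.02% to 5.30%, as do the XY 0 h libraries with XY 72 h DMSO libraries, at 0.448% to 2.29%, and the levels below are given with those counts in. From 0 h to 24 h in DMSO, where 1.61% of all genes were called higher and 1.33% lower, 9 of the 25 were called. Ret, Tmem130, Nanos2, Fbxo41 and Nab2 rose in culture and were lower with MEKi, Etv4 and Etv1 fell in culture (from 72.9 ± 5.03 and 117 ± 6.14 CPM at 0 h) and were lower still with MEKi, and Stra8 and Spp1 rose in culture and were higher still with MEKi, with the shared counts of Stra8 in the DMSO level. Fbxo41 went from 6.23 ± 0.909 CPM at 0 h to 58.6 ± 7.35 CPM in DMSO and 19.2 ± 3.94 CPM in MEKi. Between XY and XX germ cells after 24 h in DMSO, where 4.00% of all genes were higher in XY and 5.99% lower, 13 of the 17 lower genes were higher in XY, with 0 lower in XY. The mean level in XX was below the XY MEKi mean for 12 of the 17 and above it for 5, Etv4, Ret, Sohlh1, Nab2 and Nxf2. Pmaip1 was at 1.17 ± 0.471 CPM in XX, Lrrfip1 at 25.3 ± 3.40 CPM and Etv1 at 2.08 ± 1.01 CPM, below the MEKi level of each in XY, while Ret was at 4.87 ± 1.82 CPM, above it. Of the 8 higher genes, Stra8 and Calcoco2 were lower in XY than in XX, and Calcoco2 was at 56.0 ± 23.4 CPM in XX and 58.8 ± 5.21 CPM in XY MEKi.

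**Figure D4:**
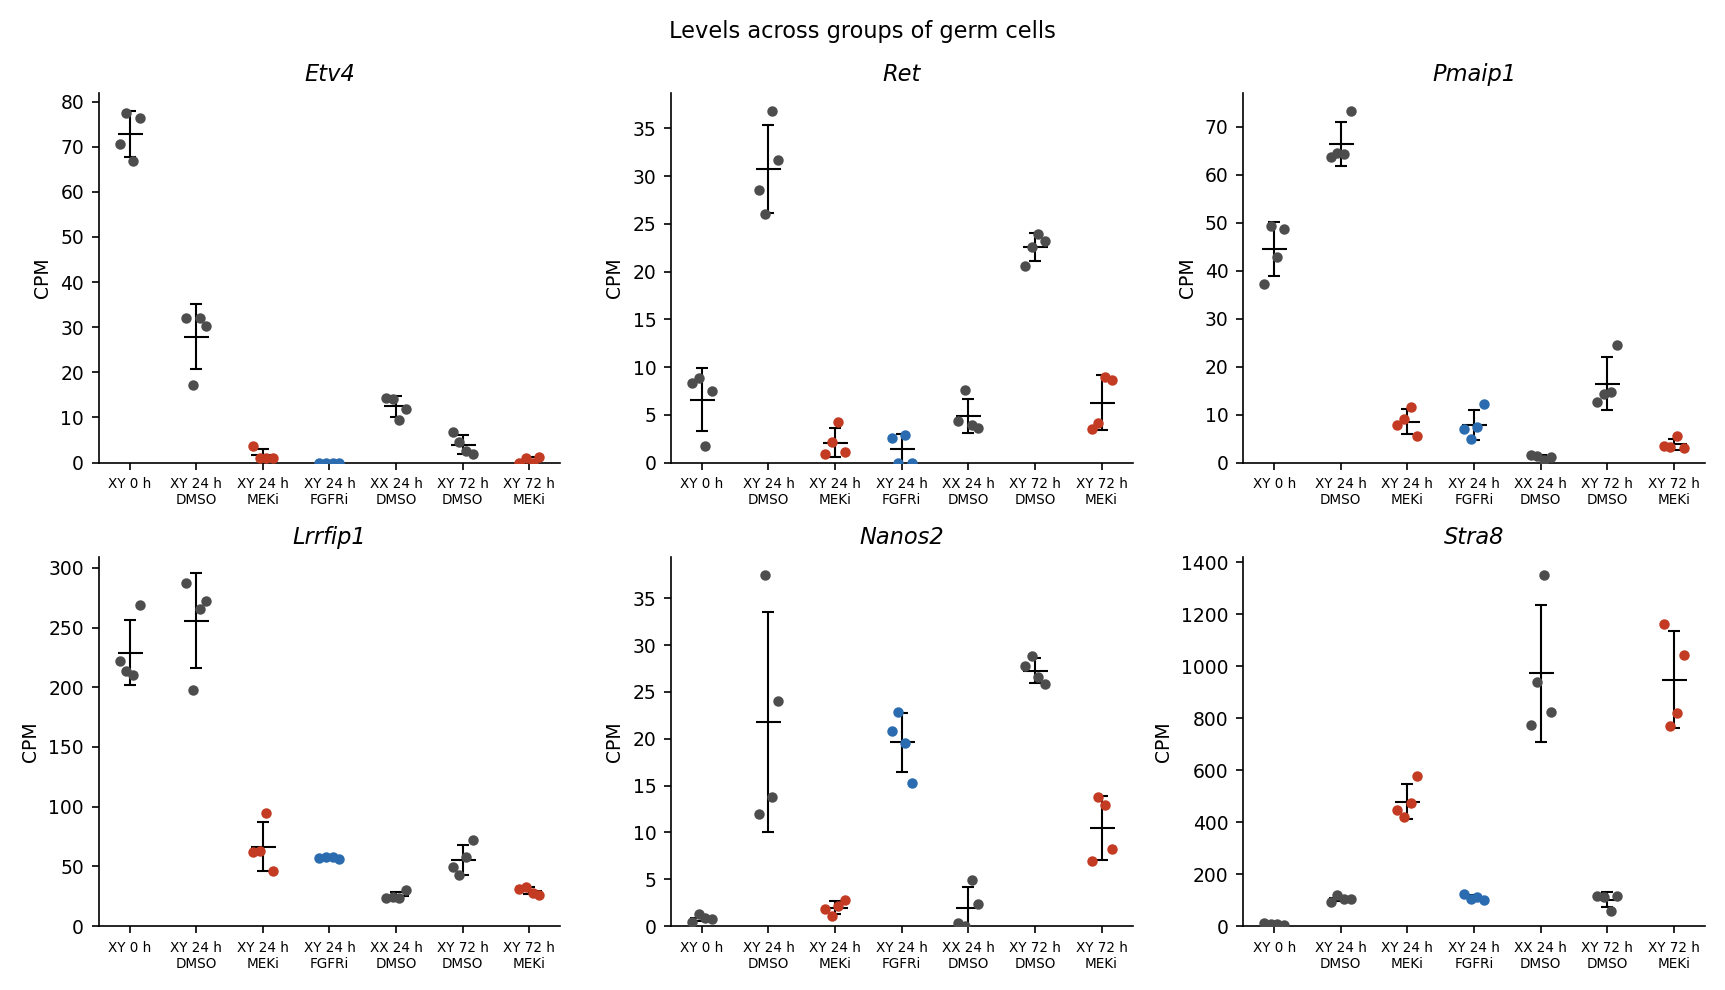
CPM of Etv4, Ret, Pmaip1, Lrrfip1, Nanos2 and Stra8 in each library (points) of 7 groups, with the group mean and SD (black), n = 4 per group. At 24 h all 6 genes differ between the DMSO and MEKi groups without overlap, and the FGFRi group lies near MEKi for Etv4, Ret, Pmaip1 and Lrrfip1 and near DMSO for Nanos2 and Stra8.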

How the data were processed

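Germ cell RNA was measured in 40 libraries in 2 pools. Per the authors' methods, a sample index and a unique molecular identifier were added at the poly(A) tail, scPipe split the reads by index and collapsed identifiers, and Rsubread placed them on GRCm39. The authors deposited whole-number counts per gene without normalisation. Their tool versions are not given in the sources used here. The submitters' processing notes name limma and edgeR.

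Of 42422 genes, filterByExpr (edgeR 4.0.16, minimum count 10, minimum total 15) kept 15252 with 99.2% of the counts. Counts were TMM-scaled and fitted over all 40 libraries with voomWithQualityWeights and 1 mean per group in limma 3.58.1 (R 4.3.3). Genes were called by treat against a 1.5-fold change at a Benjamini-Hochberg FDR under 0.05, and changes of any size by eBayes at the same FDR. SE is that of the fitted log2 difference, and FDRs in the text are from these fits. Library measures were tested by exact permutation, two-sided, over all 70 regroupings. CPM are not divided by length, as each count comes from a poly(A) tail. Precision is limited by 4 libraries per group, and counting intervals and floors cover counting error only. In simulated data of this comparison with 15001 genes, treat recovered 21% of 2-fold and 89% of 4-fold changes, and the any-size test 75% and 96%. The changed genes were drawn only from those above a set minimum CPM in DMSO, so these figures do not cover genes of lower level.

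The genes named are the DEGs, the 10 next to the threshold, the up to 4 genes of lowest p and any called gene of 18 lists, the targets of the inhibitor, and Nanos2, Stra8 and Etv4. Some genes that the rule names are not reported here. The comparison, the lists and the rule were chosen with earlier results of these data known. Symbols and coordinates are from GENCODE M39, and unmatched genes held 1.05% of the counts. Shared-index counts were estimated from genes with at least 100 partner counts. Their mean in the 24 h XY libraries with no shared index, MEKi and FGFRi, was under 10% of that in the partner group. Alternatives were other size factors, no filter, edgeR, DESeq2 1.42.0, eBayes with an observed fold, no quality weights, fewer libraries, a replicate block, shared-index counts taken out (also at a fixed 5%, chosen after seeing the data) and leaving out each library.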

Additional observations from a re-analysis of the deposited data

Results flagged for a closer look

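In groups of 4 libraries, the gap of the highest or lowest library to its nearest neighbour was taken as a share of the group's range and held against the 95% critical value of Dixon's test. Of 60 groups tested, 7 passed, where chance gives about 1 in 20. In the DMSO group the shares were 0.913 for Pmaip1, where library 5 was highest, 0.876 for Etv4, where library 3 was lowest, 0.893 for Calcoco2, where library 2 was highest, and 0.8291 for Samhd1, where library 4 was lowest. In the MEKi group they were 0.986 for Etv4 and 0.852 for Samhd1, where library 1 was highest and lowest, and 0.88 for Tmem130, where library 4 was highest. These 5 genes were called in every fit that left out a library.

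Between the culture times, limma's treat on the difference of the MEKi effects (72 h less 24 h) made a call for Hba-x (-4.84 on the log2 scale), Lgals3 (-5.958), Hba-a2 (-2.859) and Sohlh1 (3.567). The blood marker share moved with the first 3 at 24 h, and the shared-index counts with Sohlh1, and their part in these differences was not tested.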

How the results depend on the processing

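The 25 DEGs became 39 with edgeR (10 higher, 29 lower, 20 of the 25 among them) and 556 (224 higher, 332 lower, all 25 among them) when the fold was observed rather than tested. Without a filter on low counts there were 5 higher and 20 lower, the median of all genes moved from -0.02 to 0.12 on the log2 scale, and Stra8 was lost (log2 2.12, FDR 0.0624). Leaving out 1 library gave 19 to 31 DEGs, 5 to 11 higher and 12 to 20 lower. It gave 447 to 1083 changes of any size, 163 to 380 higher and 284 to 703 lower. With the replicate number as a block there were 20 DEGs, with Dusp9 gained and Hba-a2, Nab2, Nmi, Nxf2, Pde6b and Tor3a lost, and 480 changes of any size (146 higher, 334 lower). The groups share the numbers 2 and 4 only, whose libraries did not deviate together from their group means (r = -0.00209 and -0.0395 across genes), so the numbers are not taken as pairs. With shared-index counts taken out there were 24 DEGs, and at a share of 5% Sohlh1 turned to log2 0.14 and Stra8 moved to 3.42. Of the DEGs of each fit, 6 without the filter and 20 with edgeR were called at 72 h in the same direction, against 12, and 9 to 13 when a library was left out. Without DMSO library 2, genes detected (difference -1382, all leave-outs -1382 to -657.5) and the mitochondrial share (0.277 percentage points, all 0.121 to 0.277) reached p = 0.0286 in the exact permutation test. Without any 1 DMSO library the blood marker difference (0.0155 to 0.0261 percentage points over all leave-outs) had an exact permutation p of 0.0571, and without any 1 MEKi library of 0.0286. Over the 109 named genes, 1741 values under the alternatives kept direction and call, 208 lost and 21 gained a call, and 1 reversed. Of 54 genes named only for a change of any size, 31 were called in every fit that left out 1 library. Depth limits the genes with few counts, such as Lgals3, Sohlh1, Nab2 and Pde6b.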
